A study of Mus musculus with 12 samples.

Results

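The LDL receptor related protein family was followed in corneal endothelium through 10 genes, Lrp1b and its relatives Lrp1, Lrp2, Lrp4, Lrp5, Lrp6, Lrp8, Lrp10, Lrp12 and Vldlr, out of 32761 genes in the count table. The members were taken by name. Lrp1b itself was chosen by its measured values in the early libraries, where it was among the few genes lower in mutants, so its early values are a description with no test. The RNA came from Col8a2 Q455K homozygous mice, in which 1 residue of a collagen VIII chain is exchanged, and from wild-type mice. Col8a2 is a chain of the basement membrane under this cell layer, and the allele models Fuchs endothelial corneal dystrophy. The 4 groups of 3 libraries were early mutants, early wild type, late mutants and late wild type, early meaning at most 2 months of age and late at least 8 months. The labels name no treatment, the mutation is carried by every cell of the animal, and sex and the number of animals per library are not given in the labels used here. The headers of the authors' comparison tables call the wild-type controls c57, and the labels and headers name no strain for the mutants. The labels call the libraries biological replicates. All early libraries are batch 1 and all late libraries batch 2, so stage and batch cannot be told apart.

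Members of the family are membrane receptors with clusters of cysteine-rich ligand-binding repeats, and most carry cytoplasmic motifs for uptake through clathrin-coated pits. Lrp1, Lrp1b and Lrp2 are giant endocytic receptors that clear lipoproteins, proteases and protease-inhibitor complexes. Lrp5 and Lrp6 are co-receptors for Wnt, Lrp8 and Vldlr carry the reelin signal and bind apolipoprotein E, and Lrp4 is the agrin receptor that works with the kinase MuSK. The corneal endothelium is a single cell layer that pumps fluid out of the cornea and rests on Descemet membrane.

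Library totals ran from 19722598 to 39431676 counts, at which 3 counts are worth 0.0761 to 0.152 CPM (counts scaled to the library total). Col8a2 spanned 793 to 1062 CPM in late mutants against 771 to 1207 CPM in late wild type, and 811 to 1054 CPM in early mutants against 605 to 1740 CPM in early wild type, which does not check the genotype labels because the allele changes 1 amino acid. The summed level of 9 corneal endothelial markers was 10168 to 13104 CPM in late mutants against 6944 to 13655 CPM in late wild type, and every one of them was detected. Of the 9 markers, Atp1b1, a subunit of the sodium pump, fell by 0.97 on the log2 scale late (740 ± 37.5 CPM in late mutants and 1450 ± 429 CPM in late wild type, SD, n = 3 each, adjusted p = 0.035 by edgeR's quasi-likelihood test), and Tjp1 and Cdh2 were also separate on the lower side without passing. Late, 3 of the 9 lay above 0 without passing, Slc4a11 at 0.72 ± 0.36, Col8a1 at 0.51 ± 0.32 and Aqp1 at 0.38 ± 0.36 (log2, SE). Early, Atp1b1 was at 0.39 ± 0.26 (SE). Late wild-type replicate 1 stood apart from the other 2 late wild-type libraries, with replicate variance at 240 and 241 times sampling noise, where the pair of them differed by 60 times, and early wild-type replicate 2 had the lowest total. In bulk tissue, fewer cells of a type and less RNA per cell cannot be told apart.

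All 10 members passed the low-count filter that left 17965 genes. Late, 1 member passed the threshold lower (Lrp1b) and 1 higher (Lrp8) in mutants (edgeR quasi-likelihood F test, Benjamini-Hochberg adjusted p under 0.05, as for all adjusted p below). Over all tested genes 5.47% passed late, 2.77% higher and 2.71% lower. At an unadjusted p of 0.05 the late members were 4, adding Lrp2 and Lrp12, where 28.1% of all tested genes passed that level. Early, 1 of 10 members passed (Lrp1b) where 0.59% of all genes did, and nothing is read from it because that contrast chose the gene. The median late log2 fold change was 0.23 over the members and 0.00 over all tested genes, and early it was 0.10 against -0.11. Of the members 6 lay above 0 in each stage.

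For 4 members the late genotypes were fully separate, Lrp1b on the lower side and Lrp2, Lrp8 and Lrp12 on the higher side, where 25.9% of all tested genes did not overlap. The early genotypes were also separate for 4 members, Lrp1b and Lrp4 lower and Lrp1 and Vldlr higher, against 21.9% of all tested genes. Lrp1b alone among the members was separate at both stages, and nothing is read from that because its early values chose it. The sign of the genotype difference was the same at both stages for 6 of 10 members and for 59.2% of all tested genes.

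**Figure D1:**
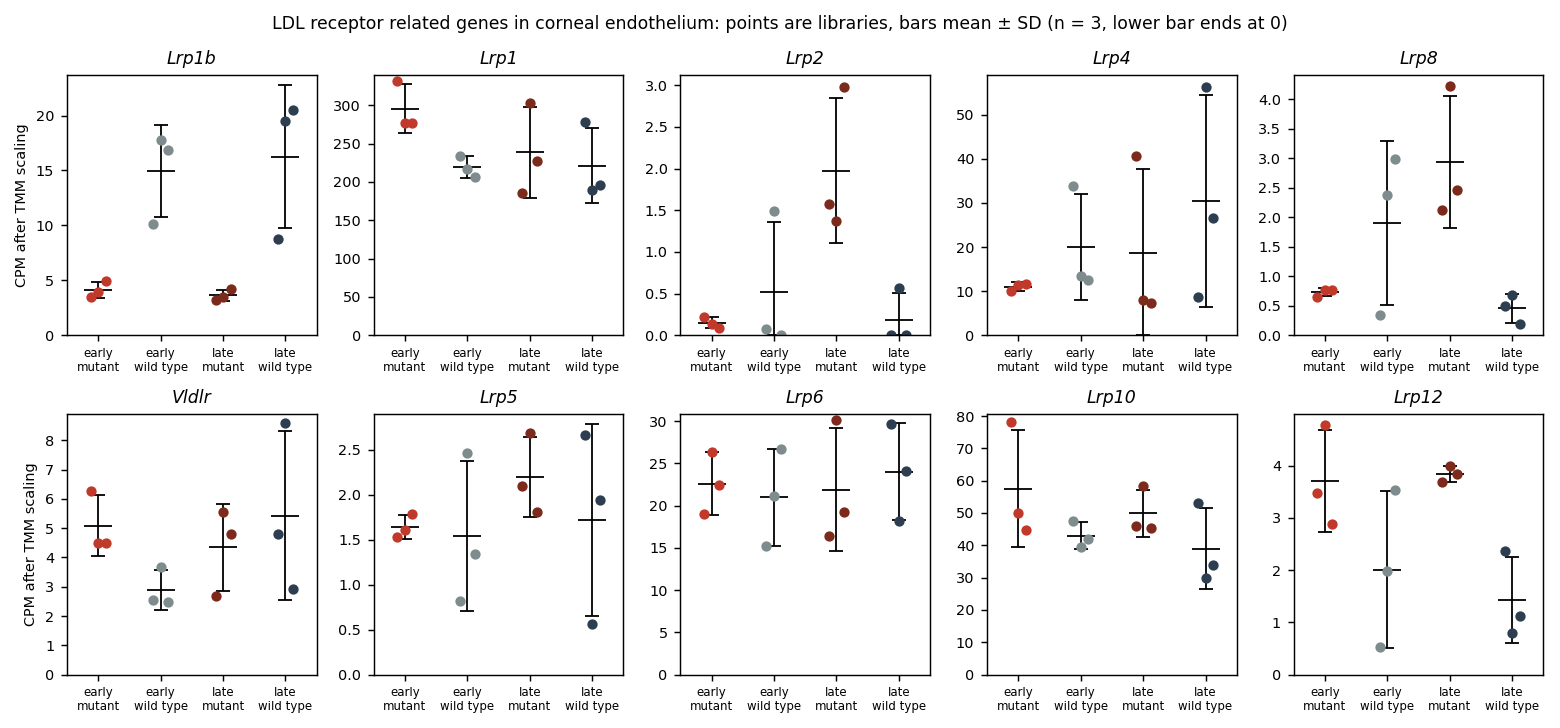
CPM after TMM scaling of the 10 members on linear axes, 1 point per library, for early mutant, early wild type, late mutant and late wild type, with bars for mean ± SD (n = 3, lower bar cut at 0). Mutant libraries of Lrp1b lie below 5 CPM in both stages while wild-type libraries span 8.79 to 20.5 CPM, and Lrp8 and Lrp2 are high in late mutants.

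Lrp1b encodes a giant endocytic receptor close to Lrp1 in build, which takes up its ligands more slowly and is often lost in human tumours. In late mutants its level was 3.23, 3.51 and 4.21 CPM, against 8.79, 19.5 and 20.5 CPM in late wild type. All 3 late mutant libraries lay below the lowest wild-type library, and late wild-type replicate 1 was less than any other wild-type library of either stage. Lrp1b (Entrez 94217) fell 4.45-fold in late mutants, by edgeR's fit -2.15 ± 0.36 on the log2 scale (SE, adjusted p = 0.0031, n = 3 against 3).

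Early, Lrp1b stood at 3.5, 3.93 and 4.92 CPM in mutants, against 10.1, 17.8 and 16.9 CPM in wild type. The early groups did not overlap, while the ranges of early and late mutants overlapped, as did those of early and late wild type. The early log2 fold change was -1.86 ± 0.35 (SE), 3.63-fold lower in mutants, given without a test. Late minus early, Lrp1b differed by -0.17 ± 0.35 in mutants and by 0.12 ± 0.34 in wild type on the log2 scale. The late genotype difference minus the early one was -0.29 ± 0.49 for Lrp1b (SE), with a 95% interval of -1.25 to 0.67, also without a test. Raw counts behind the late Lrp1b values were 94, 118 and 130 in mutants against 268, 485 and 528 in wild type, far above the level of 3 counts.

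The late call of Lrp1b was kept under all 21 alternatives tried, with log2 fold changes from -2.33 to -1.94 and adjusted p from 2.6e-06 to 0.023. With late wild-type replicate 1 and early wild-type replicate 2 both left out it was -2.33 (adjusted p = 0.0013). In the authors' deposited table the late log2 fold change of Lrp1b was -2.25 with a q-value of 5.32e-05.

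Lrp1b was also set against its relatives within each library. The difference between log2(CPM + 0.1) of Lrp1b and the mean of the 9 relatives was -1.47, -1.56 and -1.08 in late mutants, against 0.61, 1.63 and 2.16 in late wild type. Every late mutant library was below every late wild-type library, while the position of 0 has no meaning because CPM is not divided by gene length. The mean was -1.37 ± 0.26 in late mutants and 1.47 ± 0.79 in late wild type (SD, n = 3 each), a late difference of -2.84 with an exact two-sided permutation p of 0.1, the smallest that 3 libraries against 3 allow. It was -2.20 with a pseudocount of 1 CPM and -2.03 with the deposited FPKM, which divides by gene length, so its size depends on the scale and pseudocount. The relatives' mean was not fixed either. Lrp2 (0, 0.562 and 0 CPM in late wild type) and Lrp8 (0.492, 0.682 and 0.194 CPM) were low there and higher in late mutants, while Lrp4, Lrp6 and Vldlr had late log2 fold changes below 0. On FPKM the libraries stood at -2.24, -2.38 and -1.92 in late mutants against -0.92, 0.14 and 0.34 in late wild type, again without overlap. Early, the same difference was -0.98, -0.76 and -0.31 in mutants against 1.21, 1.10 and 1.47 in wild type, with means of -0.68 ± 0.34 in early mutants and 1.26 ± 0.19 in early wild type, given without a test.

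**Figure D2:**
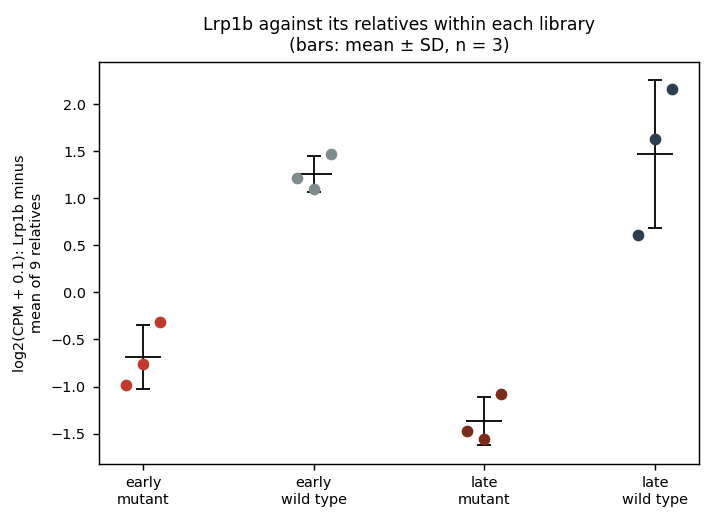
Difference between log2(CPM + 0.1) of Lrp1b and the mean of its 9 relatives in each library, by group, with bars for mean ± SD (n = 3), on a scale whose 0 has no meaning of its own. The 6 mutant libraries sit between -1.56 and -0.31 and the 6 wild-type libraries between 0.61 and 2.16.

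Levels between genes were compared per length. In FPKM Lrp1b ranked 9, 9 and 8 among the 10 members in late mutants, against 7, 5 and 5 in late wild type. Early, it ranked 8 in each mutant library and 5 in each wild-type library. Lrp1b is also the longest of the 10, with an implied exon length of 18090 bases against a median of 10255 over the members and 3603 over all tested genes. As a share of Lrp1 FPKM, Lrp1b came to 1.46%, 0.965% and 1.54% in late mutants against 2.64%, 8.54% and 8.75% in late wild type.

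The top and the bottom of the order per length were held by the same genes in all 4 groups. Lrp1 and Lrp10 were the highest in every library, with Lrp1 at 17.3 ± 6.37 FPKM in late mutants and 14.4 ± 5.06 FPKM in late wild type, and Lrp10 at 16 ± 4.2 FPKM in late mutants and 11.4 ± 5.15 FPKM in late wild type. Their ranges overlapped in all 4 groups, so neither is placed above the other. By group mean, Lrp6 and Lrp4 came next, at 2.57 ± 1.16 and 2 ± 1.89 FPKM in late mutants and 2.51 ± 0.901 and 2.93 ± 2.1 FPKM in late wild type, and their ranges overlapped in every group except early mutants. The ranges of Lrp4 and Lrp12 overlapped in early and in late mutants. In late mutant replicates 2 and 3 Lrp12 ranked 4 and Lrp4 ranked 5. Lrp2 was the lowest of the 10 in every library, at 0.136 ± 0.0562 FPKM in late mutants and 0.0105 ± 0.0182 FPKM in late wild type. Between these, late mutants ran from Lrp12 at 0.951 ± 0.146 FPKM through Lrp5, Vldlr and Lrp8 to Lrp1b at 0.217 ± 0.0375 FPKM. In late mutants each neighbour below Lrp12 overlapped the next, while Lrp12 and Lrp5 were separate. Late wild type ran from Lrp1b at 0.838 ± 0.272 FPKM through Vldlr, Lrp5 and Lrp12, all overlapping in turn, to Lrp8 at 0.0393 ± 0.0201 FPKM, which was separate from Lrp12.

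Lrp8, also called apolipoprotein E receptor 2, is a reelin receptor best known from neurons. Late, it stood at 2.13, 4.22 and 2.46 CPM in mutants against 0.492, 0.682 and 0.194 CPM in wild type. Every late mutant library was above every wild-type library, with 62, 142 and 76 counts in mutants against 15, 17 and 5 counts in wild type. Lrp8 (Entrez 16975) rose 6.4-fold in late mutants, by edgeR's fit 2.68 ± 0.74 on the log2 scale (SE, adjusted p = 0.04, n = 3 against 3). The call was lost in 11 of 20 alternatives, among them the replicate block (2.61, adjusted p = 0.055) and each fit that left out a mutant library, early or late, or 1 of the late wild-type replicates 2 and 3, with log2 fold changes from 2.33 to 3.07 and adjusted p from 0.0061 to 0.12. With late wild-type replicate 1 and early wild-type replicate 2 both left out it was 2.86 (adjusted p = 0.035). The authors' deposited table gave Lrp8 a late log2 fold change of 2.60 with a q-value of 0.0132.

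Early, Lrp8 lay on the other side of wild type. Its level was 0.656, 0.765 and 0.773 CPM in early mutants against 0.337, 2.37 and 2.99 CPM in early wild type, so the groups overlapped through 1 low wild-type library. The early log2 fold change was -1.38 ± 0.70 (SE). The late difference minus the early one was 4.05 ± 1.01 for Lrp8 (SE, adjusted p = 0.12). With Lrp1b left aside because its early values chose it, no member passed this test, in which 1 gene of 17965 did (0.00557%). Late minus early, Lrp8 differed by 2.00 ± 0.71 in mutants and by -2.05 ± 0.72 in wild type on the log2 scale, a description in which stage and batch cannot be told apart.

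Lrp2, or megalin, is the endocytic receptor of absorptive epithelia such as the kidney proximal tubule and is also made in the ciliary epithelium of the eye. It was the least abundant member, with 46, 46 and 92 counts in late mutants against 0, 14 and 0 counts in late wild type. In CPM these were 1.58, 1.37 and 2.98 in late mutants against 0, 0.562 and 0 in late wild type. All late mutant libraries were above the single wild-type library with reads. The late log2 fold change of Lrp2 was 3.40 ± 1.49 (SE, adjusted p = 0.15), with a 95% interval of 0.48 to 6.32. It did not pass except with no low-count filter (3.49, adjusted p = 0.044), and without late wild-type replicate 2 the fitted value was 8.95 (adjusted p = 0.059) because no wild-type reads were left. Early, Lrp2 had 0.219, 0.137 and 0.0928 CPM in mutants against 0.0749, 1.49 and 0 CPM in wild type, most of the wild-type reads being in replicate 2. The early log2 fold change of -1.74 ± 1.44 (SE) was 2.06 without that library.

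RefSeq (build GRCm38.p6) gave promoter windows for 5 of the 10 members, 8 windows in all, each from 250 bases before to 50 bases after a transcription start. The 2 printed here belong to Lrp8 and Lrp2, the members with the largest positive late differences, and show the 5′-most start of Lrp8 and the single start of Lrp2. Each is written 5′ to 3′ on the strand of the gene, and capitals mark matches to the GC box GGGCGG on either strand.
Lrp8 promoter, chr4:107802635-107802934, plus strand: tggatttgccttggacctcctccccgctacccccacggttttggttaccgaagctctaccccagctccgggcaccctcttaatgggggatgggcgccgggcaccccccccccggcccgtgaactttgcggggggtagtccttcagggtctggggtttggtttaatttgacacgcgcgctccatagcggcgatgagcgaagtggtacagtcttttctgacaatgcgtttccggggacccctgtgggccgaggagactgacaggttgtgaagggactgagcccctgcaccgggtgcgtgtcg
Lrp2 promoter, chr2:69585980-69586279, minus strand: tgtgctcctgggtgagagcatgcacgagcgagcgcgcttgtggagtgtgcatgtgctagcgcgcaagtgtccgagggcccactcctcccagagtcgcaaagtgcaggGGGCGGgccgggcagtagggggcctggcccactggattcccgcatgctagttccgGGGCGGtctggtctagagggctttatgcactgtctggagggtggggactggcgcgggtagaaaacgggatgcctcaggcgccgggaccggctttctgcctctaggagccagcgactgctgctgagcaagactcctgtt
The window of Lrp8 is 62.7% G or C with 21 CpG and that of Lrp2 is 65% with 20 CpG, against medians of 52.7% and 7 over 32851 windows. Both hold more CpG than the median window, and of the pair only that of Lrp2 holds GC boxes, 2 of them, which 35.7% of all windows hold at least once. Neither window holds CCAAT (37.4% of all windows), TATAAA (13.6%), the E-box CACGTG (7.15%) or the AP-1 letters TGACTCA (5.2%), searched on both strands. No pair of these motifs overlaps in either window.

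Vldlr is the second reelin receptor and binds lipoproteins rich in triglyceride. Late, it stood at 2.68, 5.56 and 4.79 CPM in mutants against 4.79, 8.59 and 2.91 CPM in wild type, and the groups overlapped. The late log2 fold change of Vldlr was -0.32 ± 0.42 (SE, adjusted p = 0.65), with a 95% interval of -1.14 to 0.51. Early, it was at 6.28, 4.48 and 4.48 CPM in mutants against 2.55, 3.69 and 2.47 CPM in wild type, all mutants above all wild types. The early log2 fold change was 0.81 ± 0.43 (SE). The late minus early difference of Vldlr was -1.13 ± 0.60 (SE, adjusted p = 0.5). The late sign of Vldlr is not settled, since the value was 0.17 without late wild-type replicate 2.

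Lrp1, the broad scavenger receptor of the family, was the most abundant large receptor. It had 185, 303 and 227 CPM in late mutants against 278, 190 and 196 CPM in late wild type, and the groups overlapped. Its late log2 fold change was 0.11 ± 0.25 (SE, adjusted p = 0.81), with a 95% interval of -0.39 to 0.61. Early, Lrp1 was at 332, 277 and 277 CPM in mutants against 234, 217 and 206 CPM in wild type, all mutants above all wild types, with a log2 fold change of 0.43 ± 0.25 (SE). Without late mutant replicate 2 the late value of Lrp1 was -0.03. Lrp1 took 36.2% to 45.7% of the summed FPKM of the 10 members in late mutants against 40% to 45.8% in late wild type.

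**Figure D3:**
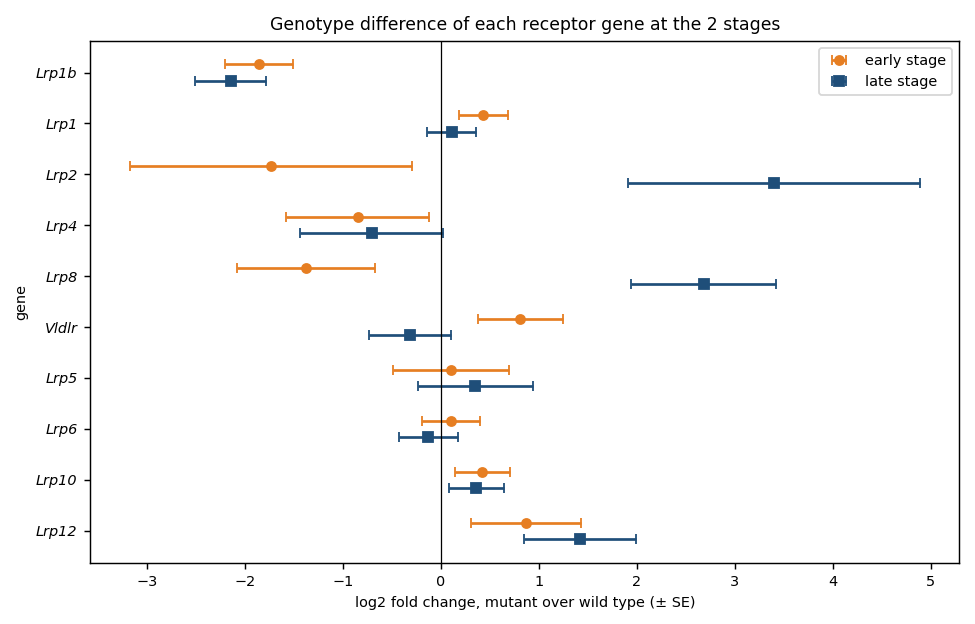
Log2 fold change of mutant over wild type for each member, early (orange circles) and late (blue squares), with SE bars and a line at 0. Lrp1b lies at -1.86 early and -2.15 late, while Lrp2 and Lrp8 lie at -1.74 and -1.38 early and at 3.40 and 2.68 late.

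Neither Wnt co-receptor passed the late test. Lrp6 was at 16.4, 30.1 and 19.2 CPM in late mutants against 29.7, 18.2 and 24.1 CPM in late wild type. Lrp5 was at 2.1, 2.68 and 1.81 CPM in late mutants against 2.66, 0.562 and 1.94 CPM in late wild type. Neither separated the genotypes. The late log2 fold change was -0.13 ± 0.30 for Lrp6 (SE, adjusted p = 0.81, 95% interval -0.72 to 0.46) and 0.35 ± 0.59 for Lrp5 (SE, adjusted p = 0.73, 95% interval -0.80 to 1.50). Both early values were 0.10, with SE of 0.30 for Lrp6 and 0.59 for Lrp5.

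Lrp4 binds agrin and the Wnt inhibitor sclerostin and varied widely between replicates. It had 40.6, 7.94 and 7.22 CPM in late mutants against 8.66, 56.3 and 26.5 CPM in late wild type. Late mutant replicate 1 lay among the high wild-type libraries and late wild-type replicate 1 lay beside the low mutants, so the groups overlapped widely. The late log2 fold change of Lrp4 was -0.71 ± 0.73 (SE, adjusted p = 0.55), and it was -2.00 without late mutant replicate 1 and 0.08 without late wild-type replicate 2. Early, Lrp4 was at 9.92, 11.5 and 11.7 CPM in mutants against 33.8, 13.4 and 12.6 CPM in wild type, separate by less than 1 CPM, with a log2 fold change of -0.85 ± 0.73 (SE) that was -0.22 without early wild-type replicate 1.

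Lrp10 and Lrp12 are smaller receptors with fewer ligand-binding repeats, and Lrp10 cycles between the Golgi, endosomes and the cell surface. Lrp12 was at 3.68, 3.99 and 3.85 CPM in late mutants against 2.36, 0.803 and 1.13 CPM in late wild type. The late mutants were close together and all above wild type. The late log2 fold change of Lrp12 was 1.42 ± 0.57 (SE, adjusted p = 0.12), and it passed without late wild-type replicate 1 (2.11, adjusted p = 0.031), where the median of all tested genes also lay higher, at 0.27. Early, Lrp12 was at 3.47, 4.78 and 2.88 CPM in mutants against 0.524, 1.98 and 3.53 CPM in wild type, overlapping through 1 library, with a log2 fold change of 0.87 ± 0.56 (SE). Lrp10 was at 46, 58.2 and 45.5 CPM in late mutants against 53.2, 29.8 and 33.9 CPM in late wild type, a late difference of 0.36 ± 0.28 on the log2 scale (SE, adjusted p = 0.43), and 0.42 ± 0.28 (SE) early.

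**Figure D4:**
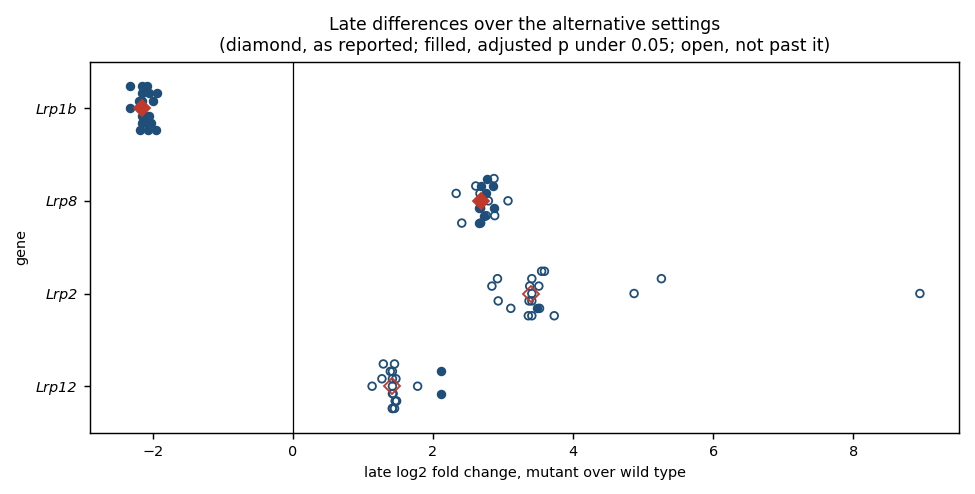
Late log2 fold change, mutant over wild type, of Lrp1b, Lrp8, Lrp2 and Lrp12 under the alternative settings, 1 circle per setting, filled where the adjusted p was under 0.05, with a diamond for the reported value. Lrp1b stays between -2.33 and -1.94 with every circle filled, Lrp8 between 2.33 and 3.07 with 11 of 20 open, and Lrp2 reaches 8.95.

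The 5 genes whose levels followed Lrp1b most closely were Unc13c, Vwde, Proca1, Inhca and Sult2b1, chosen by Pearson's r of log2(CPM + 0.1) centred by stage over the 12 libraries. Their r values were 0.95, 0.94, 0.93, 0.93 and 0.93 among 11940 candidates, and the libraries share genotype, so these are descriptions with no p. Unc13c, a vesicle priming protein, averaged 76.5 ± 5.53 CPM in late mutants and 168 ± 44.8 CPM in late wild type (SD, n = 3 each). Sult2b1, a sulfotransferase of cholesterol and steroids, averaged 2.41 ± 0.723 CPM in late mutants and 8.14 ± 1.97 CPM in late wild type. Within the late libraries r was 0.93 to 1.00 and within the early ones 0.85 to 0.93. Among the relatives, r with Lrp1b over the 12 libraries ran from -0.77 for Lrp10 to 0.43 for Lrp4.

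Beyond the receptors, 8 lists held 122 genes of the partners and pathways of these receptors, 112 of them tested. Late, 14 rose and 4 fell in mutants, 16.1% of those tested against 5.47% of all genes, and their median log2 fold change was 0.44. The lists were drawn up with earlier results of these data known, and the count depends on single libraries. Leaving out late wild-type replicate 1 gave 42 genes, while leaving out late mutant replicate 1 or 3 gave 8 or 9, and leaving out late wild-type replicate 2 or 3 gave 10 each. The calls over all tested genes moved likewise, to 20.3% without late wild-type replicate 1, 1.19% or 1.24% without late mutant replicate 1 or 3, and 1.6% or 1.89% without late wild-type replicate 2 or 3.

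Of 6 further genes of the receptor superfamily on the list, 0 passed late by edgeR's quasi-likelihood test and by limma-voom, 1 by DESeq2's Wald test and 3 without late wild-type replicate 1, while 1 had an unadjusted p under 0.05. That unadjusted level was passed by 28.1% of all tested genes. Sorl1, a sorting receptor with LDL receptor repeats, had a late log2 fold change of -0.28 ± 0.29 (SE, adjusted p = 0.55). The list's median was -0.16.

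Of the ligands and cargo of these receptors, 8 of 23 rose late and none fell, with a median log2 fold change of 1.16. The count was 16 without late wild-type replicate 1, 4 without late mutant replicate 1 and 5 without late mutant replicate 3 or late wild-type replicate 2 or 3. Plat, tissue plasminogen activator, a protease cleared by Lrp1, was at 231, 112 and 151 CPM in late mutants against 20.2, 15.9 and 21.7 CPM in late wild type, 8.54-fold higher (adjusted p = 5.3e-05). Lpl, lipoprotein lipase, averaged 14 ± 3.75 CPM in late mutants and 2.78 ± 0.396 CPM in late wild type, 5.05-fold higher (adjusted p = 0.0051). Plaur, the urokinase receptor that is taken up together with its bound protease, was 10.9-fold higher (adjusted p = 0.011), and Thbs2, a matricellular thrombospondin, 3.14-fold (adjusted p = 0.011). Calr, a chaperone that also serves as a partner of Lrp1 at the cell surface, was 2.72-fold higher (adjusted p = 0.004). Mmp13, a collagenase cleared by Lrp1, was at 1.41, 0.773 and 1.2 CPM in late mutants and at 0 in every late wild-type library, at least 10.1-fold higher against a floor of 3 counts per library (adjusted p = 0.021). Apoe, the apolipoprotein shared by most of these receptors, was very abundant at 36527 ± 1181 CPM in late mutants and 41231 ± 10710 CPM in late wild type (log2 fold change -0.17 ± 0.24 SE, adjusted p = 0.67).

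Markers of macrophages, which make several of these ligands and Lrp1, were higher in the same mutant libraries. Of 12 macrophage markers 10 rose late, with a summed level of 454.7 to 550.7 CPM in late mutants against 45.5 to 71.5 CPM in late wild type. Early, 8 of 12 passed, with 287 to 637 CPM in mutants against 37 to 68.5 CPM in wild type. The largest part of the sum was Lyz2, at 253 ± 21.7 CPM in late mutants and 31 ± 6.63 CPM in late wild type. Csf1r, a defining receptor of these cells, was at 11.1 ± 2.25 CPM in late mutants and 1.56 ± 0.548 CPM in late wild type. Early, Csf1r overlapped between genotypes, at 4.08 ± 1.36 CPM in mutants and 2.53 ± 1.45 CPM in wild type. Ptprc and Mrc1 lay below 0 early, at -1.57 ± 0.94 and -0.62 ± 1.03 (log2, SE). No marker on the list was at 0 in all 12 libraries. The part of these cells in the ligand and receptor differences was not tested. Neuron and glia markers, of the cells best known for Lrp1b and Lrp8, summed to 23.2 to 42.8 CPM in late mutants against 18.2 to 38.8 CPM in late wild type, with none of 7 tested genes past the threshold. The largest part of that sum was Mbp, at 22.6 ± 5.99 CPM in late mutants and 20.1 ± 9.35 CPM in late wild type. Late, 5 of the 7 lay above 0. Tubb3 was separate, at 1.41, 1.46 and 0.939 CPM in late mutants against 0.393, 0 and 0 CPM in late wild type (adjusted p = 0.13). Pigment cell and pigmented epithelium markers summed to 96 to 163 CPM in late mutants against 26.4 to 169 CPM in late wild type, also with none past it, and photoreceptor markers to 109 to 323 CPM in late mutants against 82.2 to 116 CPM in late wild type. Early, photoreceptor markers summed to 183 to 369 CPM in mutants against 37.1 to 75.2 CPM in wild type, with 3 of 10 past the threshold. The early sum of the pigment list was 120 to 287 CPM in mutants against 46.4 to 71.7 CPM in wild type, with 0 of 10 past it.

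Some lens markers had the pattern of Lrp8 and Lrp2, lower early and higher late in mutants. Genes of other lists had these signs too, such as Tubb3 (-1.98 ± 1.24 early and 3.19 ± 1.31 late) and Ptprc (-1.57 ± 0.94 and 2.64 ± 0.98, log2, SE). Of 9 tested lens genes 2 rose late, the crystallins Cryaa (4.02-fold, adjusted p = 0.013) and Cryba1 (3.78-fold, adjusted p = 0.028), whose early log2 fold changes were -0.81 ± 0.41 and -1.41 ± 0.46 (SE). Crybb2, another crystallin, had 1.95 ± 0.75 late (SE, adjusted p = 0.12) and -1.14 ± 0.73 early. Other lens genes lay lower late, Crygs at -1.37 ± 0.45, Bfsp2 at -1.35 ± 0.43 and Cryab at -0.72 ± 0.30 (SE). Of the 9 tested, 5 lay above 0 late, and the list's median was 0.02. Cryaa was highest in early wild-type replicate 2, at 210 CPM, the library that also held most early wild-type reads of Lrp2. Genes of other lists, such as Fzd10 and Cdh1, were also highest there among the early wild-type libraries, at 2.15 and 0.835 CPM. Lrp8 was higher in early wild-type replicate 3 (2.99 CPM) than in replicate 2 (2.37 CPM). The 10 lens genes together summed to 2028 to 2536 CPM in late mutants against 2139 to 4130 CPM in late wild type, with 1 of them at 0 in every late library. Most of that sum was Cryab, at 2006 ± 312 CPM in late mutants and 3307 ± 1096 CPM in late wild type. Of 10 keratocyte markers 3 rose and 1 fell late, and the summed level was 20914 to 31459 CPM in late mutants against 20622 to 26034 CPM in late wild type. Kera and Lum, proteoglycans of the corneal stroma, rose 5.1-fold and 4.45-fold, Cd34 rose 4.22-fold and Ptgds fell 2.58-fold (adjusted p of 0.0023, 0.0086, 0.0012 and 0.032). Vascular endothelial markers summed to 21.4 to 39.2 CPM in late mutants against 13.1 to 18.1 CPM in late wild type, with a median late log2 fold change of 1.30. By edgeR's quasi-likelihood test 0 of 7 passed the threshold. An unadjusted p under 0.05 was reached by 2 of them and by 28.1% of all tested genes. Smooth muscle and trabecular meshwork markers summed to 573 to 655 CPM in late mutants against 206 to 310 CPM in late wild type, with 2 of 8 higher and 1 lower past the threshold. The 2 higher were Mgp (161 ± 2.39 CPM in late mutants and 32.8 ± 7.23 CPM in late wild type) and Chil1 (145 ± 46.2 and 20.4 ± 5.21 CPM). Myh11, the lower 1, was at -1.05 ± 0.29 (log2, SE). Cnn1 and Tagln also lay below 0 late, at -1.95 ± 1.24 and -0.64 ± 0.68, without passing, and 5 of the 8 lay above 0. Corneal epithelial markers summed to 2806 to 4213 CPM in late mutants against 2006 to 2611 CPM in late wild type. Of these 10 markers 0 passed the threshold and 3 had an unadjusted p under 0.05, where 28.1% of all tested genes did. Most of that sum was Aldh3a1, also on the keratocyte list, at 3279 ± 783 CPM in late mutants and 2103 ± 453 CPM in late wild type. Late, 7 of the 10 lay above 0, while Krt5, Krt15 and Trp63 lay lower, at -0.93 ± 1.03, -1.19 ± 1.37 and -1.48 ± 0.49 (log2, SE). The part of any of these cells in the late values of Lrp1b, Lrp8 and Lrp2 was not tested.

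Of 17 tested chaperones and adaptors 0 passed late by edgeR's quasi-likelihood test and by limma-voom and 1 by DESeq2's Wald test. At an unadjusted p under 0.05 there were 4, where 28.1% of all tested genes passed, and the list's median was 0.31. Without late wild-type replicate 1, 3 passed the adjusted threshold. Lrpap1, the chaperone that keeps ligands off the receptors on their way to the surface, was at 868 ± 160 CPM in late mutants and 1160 ± 498 CPM in late wild type (adjusted p = 0.4). Mesd, the chaperone of Lrp5 and Lrp6, was at 197 ± 37.9 CPM in late mutants and 133 ± 6.26 CPM in late wild type (adjusted p = 0.14). Dab2, a clathrin adaptor of several members, was at 43.9 ± 4.79 CPM in late mutants and 26.1 ± 2.35 CPM in late wild type (adjusted p = 0.069). Of 10 genes of receptor shedding and gamma-secretase cleavage, Mmp14, a membrane metalloprotease that sheds Lrp1, rose 2.73-fold (65.5 ± 11.1 CPM in late mutants and 24 ± 4.81 CPM in late wild type, adjusted p = 0.0064), with a list median of 0.45.

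**Figure D5:**
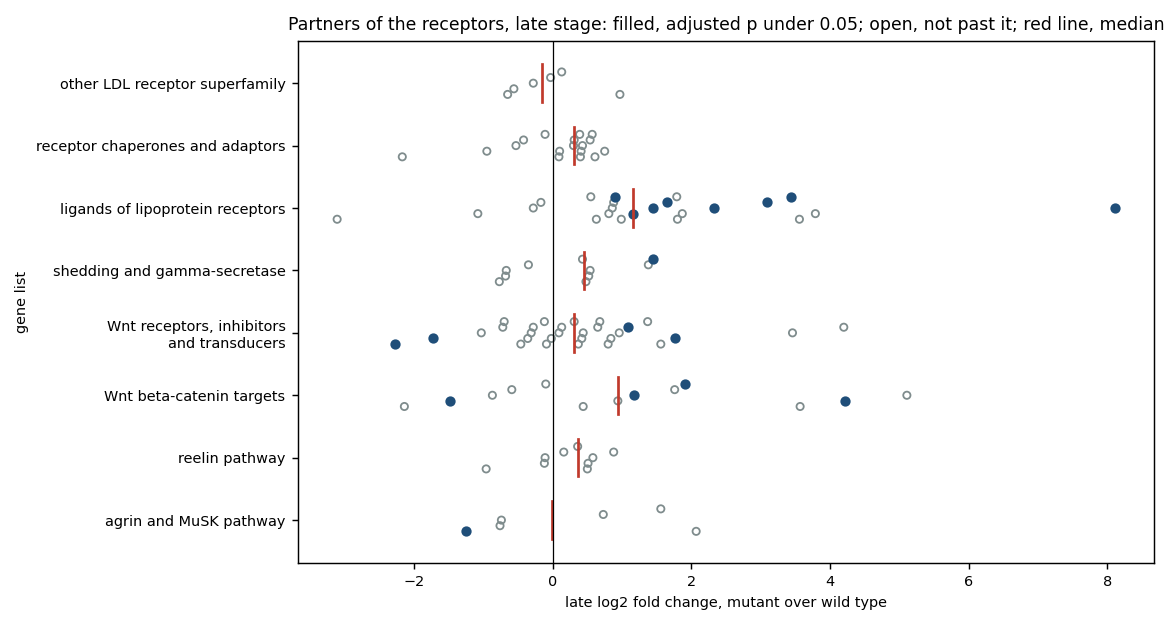
Late log2 fold change, mutant over wild type, of the tested genes in 8 lists of receptor partners, filled where the adjusted p was under 0.05, with a red line at each list's median. The ligand list has its median at 1.16 with 8 filled points on the higher side, and its rightmost point, Mmp13, had no reads in late wild type, so its fitted position depends on the prior count.

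Around the Wnt co-receptors, 2 of 29 receptors, inhibitors and transducers rose and 2 fell late (median 0.31). This count of 4, where 5.47% of all genes passed, was 1 without late mutant replicate 3, 2 without late mutant replicate 1 or late wild-type replicate 2 or 3, and 7 without late wild-type replicate 1 and early wild-type replicate 2. Fzd1, a Wnt receptor, was at 11.3, 13.2 and 10.9 CPM in late mutants against 4.36, 2.41 and 3.61 CPM in late wild type, 3.41-fold higher (adjusted p = 0.0081). Dkk3, a secreted member of the Dickkopf family, rose 2.12-fold (adjusted p = 0.031). Sostdc1, a secreted inhibitor that binds Lrp5 and Lrp6, was at 6.53, 5.21 and 7.12 CPM in late mutants against 12.5, 22.6 and 27.4 CPM in late wild type, 3.31-fold lower (adjusted p = 0.028). Lgr4, the R-spondin receptor, fell 4.85-fold (19.4 ± 6.02 CPM in late mutants and 94.3 ± 57.7 CPM in late wild type, adjusted p = 0.0078).

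Among 13 tested target genes of beta-catenin, 3 rose and 1 fell late (median 0.94). The count of 4 was 1 without late mutant replicate 1 or late wild-type replicate 3, and 2 without early or late mutant replicate 3, without late wild-type replicate 2 or with the compared libraries alone. Ccnd1, a cyclin with many other inputs, rose 18.7-fold, Myc 3.76-fold and the Wnt antagonist Nkd2 2.27-fold (adjusted p of 0.00076, 0.015 and 0.045). Tcf7, a transcription factor of the pathway, fell 2.79-fold (adjusted p = 0.03). Axin2, the most used readout of the pathway, had a late log2 fold change of -0.87 ± 0.49 (SE, adjusted p = 0.25). In the reelin pathway 0 of 9 genes passed by edgeR's quasi-likelihood test, DESeq2's Wald test or limma-voom, with 2 at an unadjusted p under 0.05, a median of 0.36 and 3 passing without late wild-type replicate 1. Over all tested genes 28.1% had an unadjusted p under 0.05. In the agrin and MuSK pathway Musk, the kinase partner of Lrp4, fell 2.38-fold (90.6 ± 20.1 CPM in late mutants and 216 ± 79.2 CPM in late wild type, adjusted p = 0.025), 1 of 6 genes.

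Of the partner genes named as passing late, Plat, Calr, Lpl, Plaur, Mmp14, Fzd1 and Ccnd1 kept their calls in all 21 alternatives. Thbs2 and Lgr4 lost theirs in 1, Myc in 2, Mmp13 in 4 and Sostdc1 and Musk in 5, each time when 1 late library was left out or, for Musk, also with the compared libraries alone. Dkk3 lost its call in 6, Tcf7 in 9 and Nkd2 in 10 alternatives. No alternative turned the direction of any of these genes.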

How the data were processed

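Polyadenylated RNA was sequenced from 12 libraries of corneal endothelium. Build GRCm39 and the tools HISAT2, HTSeq, fastp and DESeq2 are named in the submitters' processing notes without versions. Neither the annotation, the strand option of HTSeq nor a batch adjustment is given in the sources used here. Per-gene read counts as the authors deposited them, in whole numbers, were used for all tests. The authors also deposited FPKM values, used for levels between genes and for the implied gene length, and tables of early and late comparisons with a fold change as a ratio, its log2, p-values and q-values, and mean normalized signal, per the file headers. Without a known strand setting, reads of Lrp10 and of Lrp1b cannot be told apart from those of genes that overlap their exons.

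Counts were scaled by TMM and fitted in 1 model of 4 groups over all 12 libraries (edgeR 4.0.16, R 4.3.3, filterByExpr, robust quasi-likelihood F test, 8 residual degrees of freedom). The filter left 17965 of 32761 genes, and p-values were adjusted over all of them by Benjamini-Hochberg at a threshold of 0.05. The early and late libraries share this model's estimate of the spread. Standard errors were derived from the F statistic and 95% intervals are 1.96 SE to each side. Levels are CPM after TMM scaling, and a pseudocount of 0.1 CPM was used on the log2 scale. The intervals thus rest on the spread this model estimates over all 12 libraries, not on the 3 libraries of a group alone, and reach no further than these libraries. The computation was tested on simulated data.

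The members and the gene lists were chosen with earlier results of these data known. All 10 members are named, and from each list the genes past the late threshold, the 6 with the smallest p where more passed, and Lrpap1, Mesd, Sorl1, Apoe, Lpl, Axin2 and Dab2 whatever their p. A further gene of this rule and a marker gene were left out of their lists and are not reported here. The cell type markers named singly, Csf1r among them, and the library checks stand outside this rule. Which of them to name was chosen after their values were seen. Deviations from the group mean correlated between same-numbered mutant and wild-type libraries from -0.16 to 0.10, and replicate numbers were therefore not treated as pairs. Alternatives were DESeq2 size factors, no filter, a stricter filter (5 CPM in 3 libraries), the Wald test of DESeq2 1.42.0, limma-voom 3.58.1 with sample weights, the compared libraries alone, a replicate block, a gene length offset and leaving out each library. Leaving out late wild-type replicate 1 together with early wild-type replicate 2 was chosen after seeing the data. Promoter sequences are from RefSeq on GRCm38.p6, another build than the submitters', so they carry no read data.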

Additional observations from a re-analysis of the deposited data

Results flagged for a closer look

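Lrp8 and Lrp2 stood out because the mutant libraries lay on one side of the wild-type mean early and on the other side late. For Lrp8, 2.13, 4.22 and 2.46 CPM in late mutants lay above the late wild-type mean of 0.456 CPM, and 0.656, 0.765 and 0.773 CPM in early mutants lay below the early wild-type mean of 1.9 CPM. The late genotype difference of Lrp8 minus the early one was 4.05 ± 1.01 on the log2 scale (SE, unadjusted p = 0.00074, adjusted p = 0.12 by edgeR's quasi-likelihood test), so it did not pass over all genes. For Lrp2, 1.58, 1.37 and 2.98 CPM in late mutants lay above the late wild-type mean of 0.187 CPM, and 0.219, 0.137 and 0.0928 CPM in early mutants lay below the early wild-type mean of 0.523 CPM, which rests on replicate 2 at 1.49 CPM. The late minus early difference of Lrp2 was 5.14 ± 2.06 (SE, unadjusted p = 0.022, adjusted p = 0.34), also short of the threshold. Early and late libraries are different batches, and stage and batch cannot be told apart.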

How the results depend on the processing

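Members past the late threshold numbered 2. The count was 1 with the stricter filter, where Lrp8 was not tested, with limma-voom, with the compared libraries alone and with the replicate block, 1 to 3 when 1 library was left out, and 4 with late wild-type replicate 1 and early wild-type replicate 2 both left out. Genes of the partner lists past it numbered 18, against 30 by DESeq2's Wald test, 16 with the replicate block, 8 to 42 when 1 library was left out and 48 without both libraries. Over all genes the late count was 983, against 2460 by DESeq2's Wald test, 1507 with no filter, 1728 by limma-voom, 489 with the compared libraries alone, 229 to 3909 with 1 library left out and 4371 without both. Lrp1b kept its call and direction in all 21 alternatives, the replicate block included (-2.08). The within-family difference of Lrp1b ran from -3.27 to -2.49 when 1 late library was left out. The early value of Lrp1b was -1.34 with the gene length offset. Late values without a call changed sign when 1 library was left out for Lrp1 (-0.03 to 0.43), Lrp4 (-2.00 to 0.08), Lrp5 (-0.07 to 0.93), Lrp6 (-0.36 to 0.18) and Vldlr (-0.61 to 0.17), and Lrp6 was at 0.17 without both libraries. The cause was not tested. Lrp2 had 0, 14 and 0 counts in late wild-type replicates 1, 2 and 3, at library totals of 27862984, 28819891 and 27723176 counts.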
